A study of Mus musculus with 21 samples.

Results

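St6galnac5 and 9 further genes of ganglioside synthesis were followed in brain RNA of mice homozygous for an Eif2b5 R191H knock-in (eIF2B HOM) and of wild-type mice. St6galnac5 was selected on a measured value of these data, its lower level in eIF2B HOM mice. St6galnac6, St3gal5, St3gal2, St8sia1, St8sia3, St8sia5, B4galnt1, Ugcg and B4galt6 were chosen by name as genes of the same pathway, to ask whether that lower level was shared along it. All 10 are among the 22058 genes of the deposited table, and all 10 passed the filter on low counts that left 9192 genes for testing.

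Gangliosides are glycolipids of the outer cell membrane that carry sialic acid, and they are abundant on neurons. Their synthesis starts in the Golgi from ceramide: a glucose is added by the Ugcg product, then a galactose by B4galt6 or B4galt5, and then the first sialic acid by St3gal5. Further enzymes branch the chain by adding sialic acid (the St8sia, St3gal and St6galnac genes) or N-acetylgalactosamine (B4galnt1). The enzymes encoded by St6galnac5 and St6galnac6 act late, on chains that already hold N-acetylgalactosamine, and give the alpha-series gangliosides, a minor class in brain.

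RNA came from the anterior right hemisphere of 9 eIF2B HOM mice (5 female, 4 male) and 12 wild-type mice (7 female, 5 male), all C57Bl6/J and 90 to 114 days old. The eIF2B HOM mice carry an arginine-to-histidine change in both copies of Eif2b5, which encodes the epsilon subunit of the translation factor eIF2B, in every cell of the body. The wild-type mice do not carry it, and the colony was bred from heterozygous parents. Batch 1 held 4 eIF2B HOM mice aged 105 to 114 days and 8 wild-type mice aged 104 to 114 days. Batch 2 held 5 eIF2B HOM mice aged 93 to 104 days and 4 wild-type mice aged 90 to 92 days, and so batch and age cannot be told apart. Within batch 2 every eIF2B HOM mouse was older than every wild-type mouse, so genotype and age cannot be told apart there.

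Libraries were read from the 3′ ends of transcripts with molecular identifiers, and held 727018 to 3100141 counts over the listed genes, 5 of the 21 under 1000000. All 5 were in batch 1, so depth goes with batch and age. The library sizes implied by the deposited CPM were larger, at 1090909 to 4705882. Levels are counts scaled to library size (CPM) with TMM factors between libraries. A transcript gives about 1 read position in this assay, whatever its length, so CPM can be set side by side between genes, apart from differences in how well each 3′ end was captured. The tags do not read the altered codon, so the table holds no check of the genotype labels. Neuron markers were abundant, at summed levels of 2999 to 4984 CPM, and those of choroid plexus were low, at 4.32 to 31.3 CPM.

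In wild-type mice the 10 genes spanned from 129 ± 36.9 CPM for St8sia3 to 11.04 ± 4.17 CPM for St8sia1 (mean ± SD, n = 12). St8sia3, B4galt6 (120 ± 12.3 CPM) and St3gal2 (110 ± 13.5 CPM) led the order, and the gaps between these neighbours were within the larger SD. St6galnac5 came next at 91.8 ± 15.0 CPM, below St3gal2 by more than the SD, followed by St3gal5 (81.9 ± 26.0 CPM) and St6galnac6 (68.0 ± 12.5 CPM), again within the SD of each other. B4galnt1 lay lower by more than the SD, at 32.1 ± 5.55 CPM. Ugcg (20.8 ± 5.66 CPM) and St8sia5 (15.4 ± 3.71 CPM) lay below it and within the SD of each other. St8sia1 rested on 4 to 23 counts per library, so that counting error is large for it. The deposited 3′ ends of St8sia3 (64276146) and St8sia5 (77255450) lie short of those in the annotation used for exons (64279611 and 77258771). Tags beyond the deposited ends may not have been counted, so the places of both genes in this order are uncertain. The plot of levels per mouse shows each gene by genotype and batch.

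**Figure D1:**
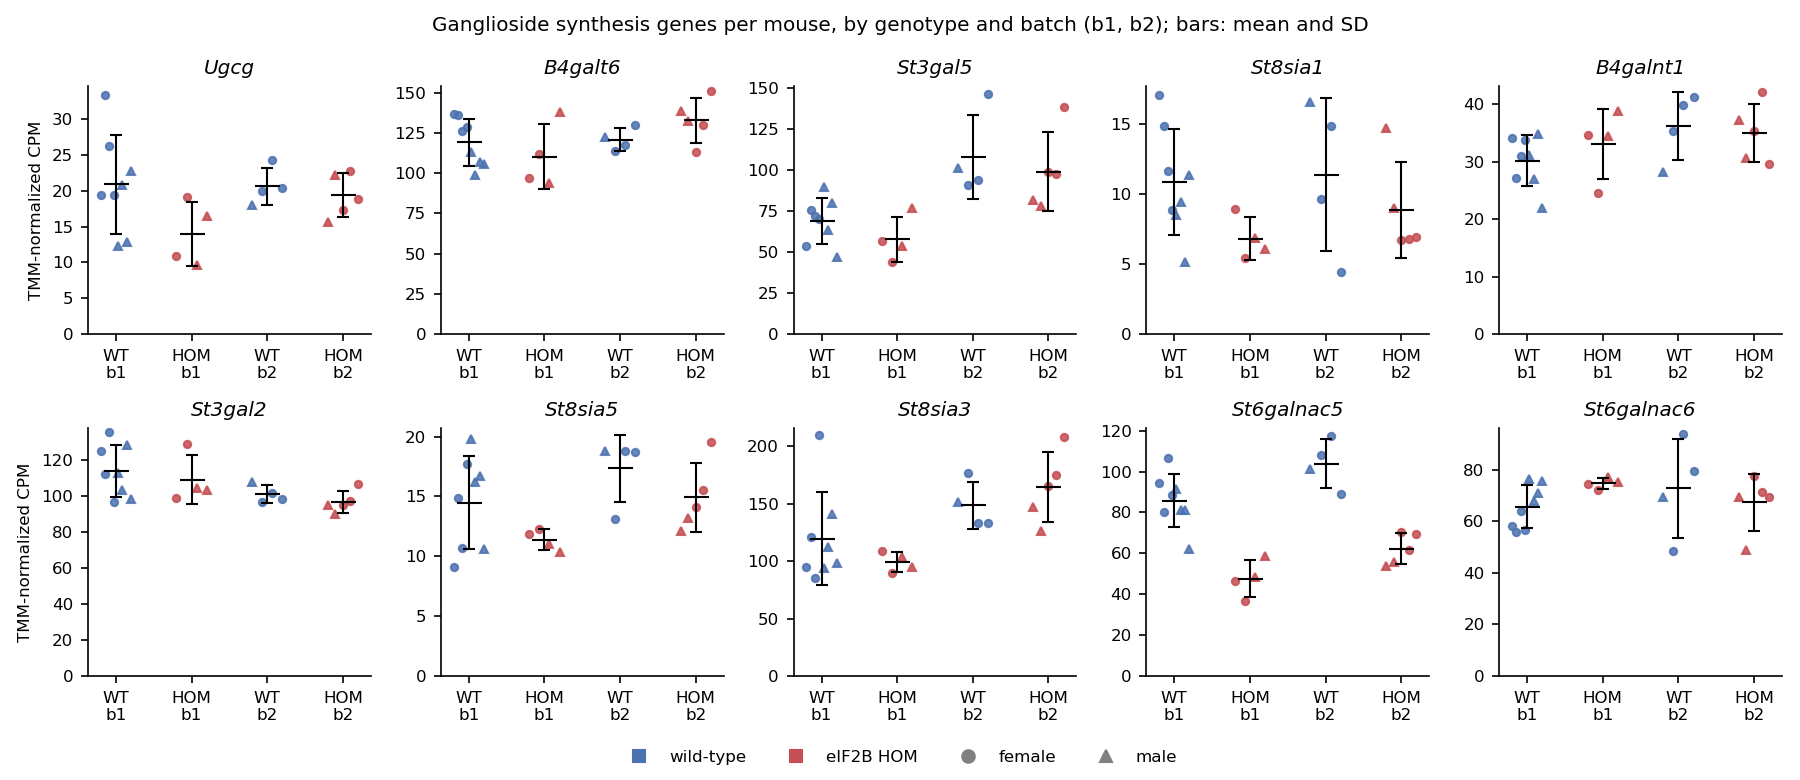
TMM-normalized CPM of the 10 genes in each mouse (y axis, linear from 0) for wild-type (WT) and eIF2B HOM (HOM) mice of batch 1 (b1) and batch 2 (b2); circles are females, triangles are males, and black bars are mean and SD. St6galnac5, chosen for its lower level in these mice, is the gene whose eIF2B HOM mice all lie below the wild-type mice of their batch. St3gal5 and St8sia3 stand higher in batch 2 in both genotypes.

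St6galnac5 (ENSMUSG00000039037) lies on the minus strand of chromosome 3 at 152817081 to 152982246 in GRCm38, a span of 165166 bases. Its coding transcript has 5 exons, and the 3′ exon, where these tags fall, covers 152817081 to 152821742. In the 12 wild-type mice the level ranged from 62.1 CPM, with a median of 90.2, to 117 CPM. In the 9 eIF2B HOM mice it ranged from 36.8 CPM, with a median of 55.9, to 70.6 CPM. Of the eIF2B HOM mice, 7 lay below every wild-type mouse, and 11 of the 12 wild-type mice lay above every eIF2B HOM mouse. The fitted log2 fold change was -0.68 (SE 0.09, 95% interval -0.87 to -0.50), or 0.622-fold of wild-type, with sex and age in the edgeR fit. This contrast chose the gene, so the value and its interval are a description and carry no test.

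Within batches the genotypes did not overlap for St6galnac5. This is a description, since the gene was chosen for its lower level in these same mice. The share of all genes without such overlap was not counted. In batch 1 the eIF2B HOM mice were at 36.8, 46.6, 48.3 and 58.7 CPM, and the wild-type mice at 62.1 to 107 CPM with a median of 84.9. In batch 2 the eIF2B HOM mice were at 53.7, 55.9, 61.6, 69.3 and 70.6 CPM. The wild-type mice of batch 2 were at 88.9, 101, 108 and 117 CPM. The only wild-type mouse inside the eIF2B HOM range was a male of 113 days in batch 1, at 62.1 CPM. The log2 fold change was -0.82 (SE 0.16) in batch 1 and -0.69 (SE 0.12) in batch 2, each fitted without age. In batch 2 all eIF2B HOM mice were older than all wild-type mice, so age may have a part in that difference, which was not tested. The log2 fold change was -0.74 (SE 0.12) in females and -0.59 (SE 0.14) in males.

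The differences between those fold changes were tested, since the choice of the gene did not use them. The genotype effect on St6galnac5 was 0.14 higher on the log2 scale in males than in females (SE 0.19, 95% interval -0.23 to 0.52), with an adjusted p of 1 by edgeR. It was 0.11 higher in batch 2 than in batch 1 (SE 0.20, 95% interval -0.29 to 0.52), again with an adjusted p of 1. Both intervals are wide beside the genotype effect itself. For both terms 0 of the 10 genes were called, with 0% of all 9192 genes called as background. At an unadjusted p under 0.05 the sex term had 252 genes and the batch term 326, and 0 of the 10 in either. Limma voomWithQualityWeights and DESeq2 also called 0 genes for both terms.

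The first steps of the pathway gave no call. Ugcg on chromosome 4, which encodes the glucosylceramide synthase that commits ceramide to glycolipids, was at 12.3 to 33.4 CPM in wild-type mice (median 20.1) and at 9.65 to 22.7 CPM in eIF2B HOM mice (median 17.3). The ranges overlapped in 8 of the 12 wild-type mice, and 2 eIF2B HOM mice lay below every wild-type mouse. The log2 fold change was -0.22 (SE 0.15, adjusted p = 0.495 by edgeR). It was -0.57 (SE 0.26, adjusted p = 0.496) in batch 1 and -0.05 (SE 0.17, adjusted p = 0.975) in batch 2. B4galt6 on chromosome 18, which encodes a lactosylceramide synthase, was at 99.2 to 137 CPM in wild-type mice (median 120) and at 93.7 to 151 CPM in eIF2B HOM mice (median 130). Its eIF2B HOM mice lay on both sides of the wild-type range, 2 below it and 3 above it. Its log2 fold change was 0.06 (SE 0.08, adjusted p = 0.81).

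St3gal5 on chromosome 6 encodes the enzyme that adds the first sialic acid, to give GM3, from which the brain's complex gangliosides derive. It was at 46.9 to 146 CPM in wild-type mice (median 77.6) and at 43.6 to 139 CPM in eIF2B HOM mice (median 78.1). The groups overlapped almost fully, and the log2 fold change was 0.01 (SE 0.11, adjusted p = 0.99). St8sia1 on chromosome 6, which encodes GD3 synthase and opens the b-series, was at 4.44 to 17.1 CPM in wild-type mice (median 10.5) and at 5.45 to 14.7 CPM in eIF2B HOM mice (median 6.89). Of the 12 wild-type mice, 4 lay above every eIF2B HOM mouse and 2 lay below all of them. Its log2 fold change of -0.41 was the lowest of the 9 and the least precise (SE 0.22, 95% interval -0.86 to 0.03, adjusted p = 0.355).

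B4galnt1 on chromosome 10 encodes the N-acetylgalactosamine transferase on which complex gangliosides depend. It was at 22.0 to 41.3 CPM in wild-type mice (median 32.5) and at 24.5 to 42.2 CPM in eIF2B HOM mice (median 34.7), and its fitted log2 change was 0.10 (SE 0.11, adjusted p = 0.718). St3gal2 on chromosome 8, which adds a sialic acid to the outer galactose, was at 96.7 to 136 CPM in wild-type mice (median 106) and at 90.1 to 129 CPM in eIF2B HOM mice (median 99.1). Its lowest 3 eIF2B HOM mice lay under the wild-type range, and the log2 fold change was -0.10 (SE 0.08, adjusted p = 0.576). St3gal2 was among the least variable of the genes, with a coefficient of variation of 12.3% in wild-type mice.

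St8sia5 and St8sia3, both on chromosome 18, encode enzymes that add a sialic acid to another sialic acid. St8sia5 was at 9.12 to 19.8 CPM in wild-type mice (median 16.5) and at 10.4 to 19.5 CPM in eIF2B HOM mice (median 12.3), and its fitted log2 change was -0.19 (SE 0.15, adjusted p = 0.578), with -0.44 (SE 0.24) in males and -0.03 (SE 0.20) in females. St8sia3 was at 85.3 to 210 CPM in wild-type mice (median 127) and at 89.9 to 208 CPM in eIF2B HOM mice (median 126), and its fitted log2 change was 0.07 (SE 0.15, adjusted p = 0.871). St6galnac6 on chromosome 2, the relative of St6galnac5 that can make the same class of ganglioside, was at 48.4 to 93.8 CPM in wild-type mice (median 68.5) and at 48.7 to 77.6 CPM in eIF2B HOM mice (median 72.2). Its log2 fold change was 0.04 (SE 0.10, 95% interval -0.16 to 0.25, adjusted p = 0.901).

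Of the 9 genes other than St6galnac5, edgeR called 0 by genotype, beside 4.32% of all tested genes called and 1.70% called lower, and 0 of the 9 had an unadjusted p under 0.05. Limma voomWithQualityWeights and DESeq2 also called 0 of them. With 9 genes, a count of 0 is near that background and is no result by itself. The 95% intervals of the 9 reached down to between -0.86 (St8sia1) and -0.11 (B4galt6), the next lowest bounds being -0.52 (Ugcg) and -0.49 (St8sia5). Whether any of the 9 differed from St6galnac5 in its genotype effect was not tested, since St6galnac5 was chosen on that effect, and its own interval ran from -0.87 to -0.50. The median log2 fold change of the 9 was 0.01, beside -0.01 over all tested genes. The fitted directions of St6galnac6, St3gal5, St8sia3, B4galnt1 and B4galt6 were not stable: each changed sign with other covariates or within a batch or a sex, and that of St3gal5 was -0.22 in batch 1 and -0.11 in batch 2.

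**Figure D2:**
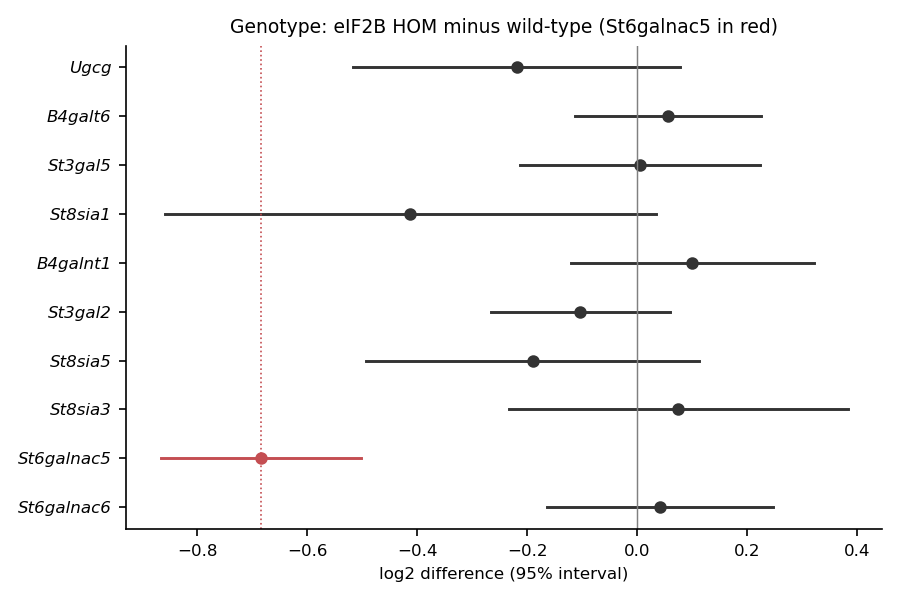
Log2 fold change of eIF2B HOM against wild-type mice (x axis) for the 10 genes in the order of their steps, as points with 95% intervals from the edgeR fit over 21 mice; the dotted line marks the value of St6galnac5, which was chosen by this contrast. St6galnac5 has the lowest value at -0.68, and the intervals of the other 9 genes all include 0.

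The summed level of the 10 genes was 640 ± 93.6 CPM in eIF2B HOM mice (n = 9) and 680 ± 62.7 CPM in wild-type mice (n = 12), with ranges that overlapped (543 to 818 and 554 to 761 CPM). St6galnac5 made up 8.68 ± 0.96% of that sum in eIF2B HOM mice, from 6.75% to 10.2%. It made up 13.5 ± 1.65% in wild-type mice, from 11.2% to 15.9%, and the groups did not overlap. This share holds the value that chose St6galnac5 and was not tested. In bulk tissue, fewer cells that express a gene and less RNA per cell cannot be told apart.

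**Figure D3:**
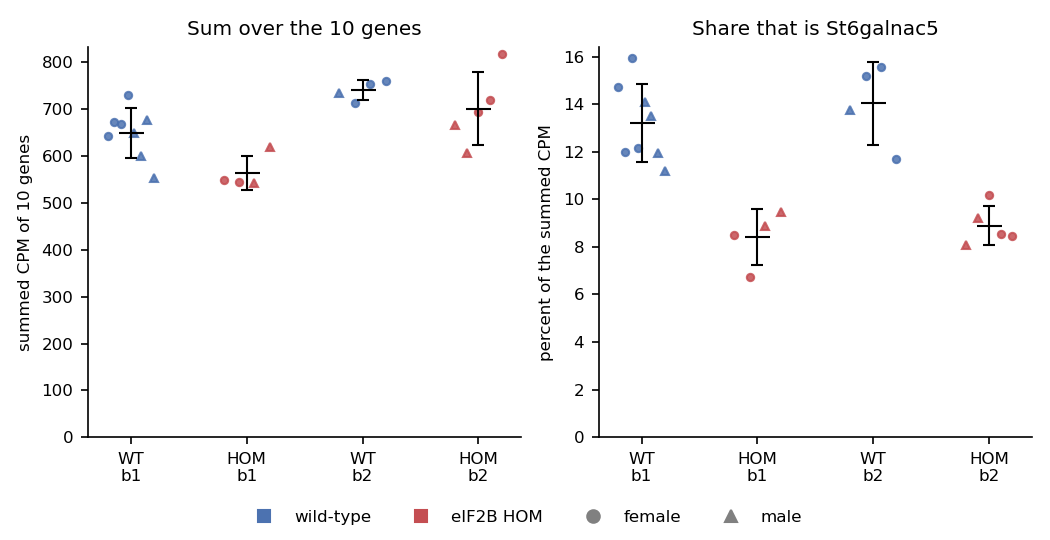
Summed CPM of the 10 genes (left) and the percent of that sum that is St6galnac5 (right), per mouse, for wild-type (WT) and eIF2B HOM (HOM) mice of batch 1 (b1) and batch 2 (b2); circles are females, triangles are males, and black bars are mean and SD. The sums overlap between genotypes, and the shares of eIF2B HOM mice (up to 10.2%) all lie under those of wild-type mice (from 11.2%).

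Cell type markers were measured beside these values, with 4.32% of all tested genes called by genotype as background. Of 7 oligodendrocyte markers 1 was lower in eIF2B HOM mice, Mbp, which encodes myelin basic protein (log2 fold change -0.49, SE 0.09, adjusted p = 0.000564 by edgeR). The summed level of the 7 was 3211 to 5811 CPM (median 3707), against 3728 to 8779 CPM (median 5282) in wild-type mice. These sums were lower in batch 2, and within batches the medians were closer: 5295 against 5857 CPM in batch 1, with overlapping ranges, and 3381 against 3957 CPM in batch 2, where the ranges did not overlap (3211 to 3707 and 3728 to 5136 CPM). Mbp, at a mean of 3698 CPM over all mice, was the largest part of these sums. The mean log2 CPM of the 7, which weights each marker equally, overlapped in batch 2. It was 6.75 to 7.24 in eIF2B HOM and 7.07 to 7.44 in wild-type mice. Of 8 astrocyte markers 1 was higher (Gfap), and of 8 cortical excitatory neuron markers 1 was lower (Lamp5). None of the 8 general neuron, 6 inhibitory neuron, 7 microglia or 7 tested striatal markers was called. Olfactory bulb markers summed to 5.84 to 81.2 CPM in eIF2B HOM and 8.66 to 86.8 CPM in wild-type mice, and with their mean level as a covariate the log2 fold change of St6galnac5 was -0.68. The part of the oligodendrocyte, astrocyte and cortical markers in the level of St6galnac5 was not tested.

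Other genes of the pathway were described by 6 lists with 58 names, of which 56 were in the table and 32 were tested. By edgeR 0 of the 32 were higher and 1 was lower in eIF2B HOM mice, beside 1.70% of all tested genes called lower, so this count is near the background. That gene was Degs1, which encodes the dihydroceramide desaturase of ceramide synthesis, at 41.2 ± 8.58 CPM in eIF2B HOM (n = 9) and 60.5 ± 15.1 CPM in wild-type mice (n = 12). It fell by 0.51 on the log2 scale in eIF2B HOM mice (log2 fold change -0.51, SE 0.12), with an adjusted p of 0.00558 by edgeR. By edgeR the call was lost within batch 1 (-0.81, adjusted p = 0.0676) and within batch 2 (-0.25, adjusted p = 0.579). It was also lost in females (-0.45, adjusted p = 0.112) and in males (-0.59, adjusted p = 0.267). Without the libraries under 1000000 listed counts, which are all in batch 1, it was lost as well (-0.41, adjusted p = 0.0614). The log2 fold change was below 0 in each of these fits, which hold fewer mice. The call held with limma (adjusted p = 0.00719) and DESeq2 (adjusted p = 0.00238). With batch in place of age it held by edgeR (-0.49, adjusted p = 0.041), and 0 of the 21 fits that left out 1 mouse lost it.

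The other 31 tested genes were not called. Their log2 fold changes ran from -0.51 (Sptssa, SE 0.23, adjusted p = 0.263 by edgeR) to 0.38 (Gm2a, SE 0.12, adjusted p = 0.064). The genes named below are the most abundant of each list, not those with the largest change. Of the 6 other ganglioside synthesis genes, 4 were tested and B4galt5, the second lactosylceramide synthase, was the most abundant (log2 fold change -0.16, SE 0.14, adjusted p = 0.619). Of 9 other sialyltransferases 5 were tested, led by St3gal6 (-0.25, SE 0.16, adjusted p = 0.483), and St6galnac1 was at 0 counts in every library. Of 15 ceramide synthesis genes with counts listed, 9 were tested, with a median of -0.12. The sialic acid supply list was led by Cmas, which activates sialic acid for transfer (-0.05, SE 0.08, adjusted p = 0.835). Among breakdown genes Psap, the precursor of the saposins that assist lysosomal glycolipid hydrolysis, led at 535 ± 125 CPM in wild-type mice (-0.12, SE 0.10, adjusted p = 0.603). Smpd3, a neutral sphingomyelinase, led the list of myelin galactolipid and sphingomyelin genes (0.08, SE 0.10, adjusted p = 0.781). The list medians lay between -0.12 and 0.08, beside -0.01 over all tested genes.

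**Figure D4:**
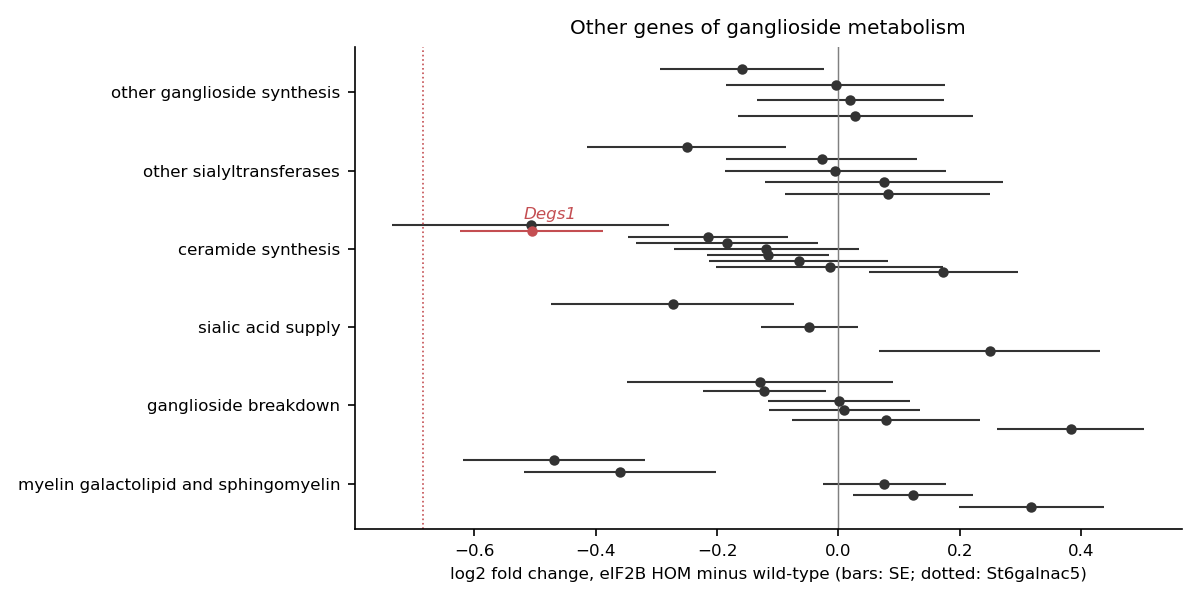
Log2 fold change of eIF2B HOM against wild-type mice (x axis) for the 32 tested genes of the 6 lists (y axis), as points with SE bars; the dotted line marks St6galnac5 and red marks an adjusted p under 0.05. Degs1 at -0.51 is the only gene called.

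Some of the 10 genes differed between the batches. Depth differed too, with all libraries under 1000000 counts in batch 1, and its part in these differences was not tested. With genotype and sex in the edgeR fit, 3 of the 10 were higher in batch 2, beside 21.6% of all tested genes called and 10.2% called higher, and nothing is read from the count itself. St3gal5 was at 43.6 to 89.6 CPM in batch 1 (median 66.6) and at 78.1 to 146 CPM in batch 2 (median 97.3). Its log2 difference was 0.69 (SE 0.13, adjusted p = 0.000346 by edgeR), as large as the genotype difference of St6galnac5 and of opposite sign. It was called within eIF2B HOM mice (0.73, adjusted p = 0.0321) and within wild-type mice (0.68, adjusted p = 0.0108) alone.

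St8sia3 was at 85.3 to 210 CPM in batch 1 (median 101) and at 126 to 208 CPM in batch 2 (median 152), with a log2 difference of 0.45 (SE 0.13, adjusted p = 0.0184 by edgeR). A wild-type female of 114 days in batch 1 had the highest level of all 21 mice, at 210 CPM, and without it the difference was 0.58 (adjusted p = 0.00021). The difference was called in eIF2B HOM mice alone (0.70, adjusted p = 0.0102) but not in wild-type mice alone (0.28, adjusted p = 0.354). The test of the difference between genotypes gave 0.43 (SE 0.25, adjusted p = 1). St6galnac5 was higher in batch 2 by 0.28 (SE 0.10, adjusted p = 0.0371), and 8 of the 21 fits that left out 1 mouse lost this call. St3gal2 was lower by 0.18, which did not pass after adjustment (log2 difference -0.18, SE 0.08, adjusted p = 0.112).

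Without the eIF2B HOM female of 114 days, St6galnac5 differed between batches by 0.22 (adjusted p = 0.133) and St8sia3 by 0.38 (adjusted p = 0.0607), and only St3gal5 was still called. The other 7 mice whose removal ended the call of St6galnac5 are given with the processing alternatives. In the same contrast 21.6% of all tested genes were called and 10.2% were higher, with 1052 of 9192 lower, as background for the markers. Of 8 general neuron markers 6 were higher in batch 2, with a list median of 0.40, and 0 of 7 striatal markers were called, with a median of 0.30. Of the other lists, 3 of 8 cortical excitatory, 2 of 6 inhibitory neuron and 3 of 7 microglia markers were higher, 3 of 8 astrocyte markers were lower (median -0.28), and of 7 oligodendrocyte markers 1 was higher and 2 were lower. The part of these markers in the batch differences was not tested. With the striatal marker level as a covariate the differences were 0.69 for St3gal5, 0.34 for St8sia3 (adjusted p = 0.022) and 0.32 for St6galnac5 (adjusted p = 0.0199). This fit was chosen after seeing the data. No other marker list was used as a covariate of the batch differences, so the fit does not show the part of cell types in them.

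No difference between the sexes was called for the 10 genes by edgeR, 0 of 10, with 0.0326% of all tested genes called as background. At an unadjusted p under 0.05 there were again 0 of 10, and limma and DESeq2 called 0 of 10. The log2 differences between males and females ran from -0.22 (Ugcg, 95% interval -0.55 to 0.10) to 0.19 (St8sia1, 95% interval -0.28 to 0.66).

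**Figure D5:**
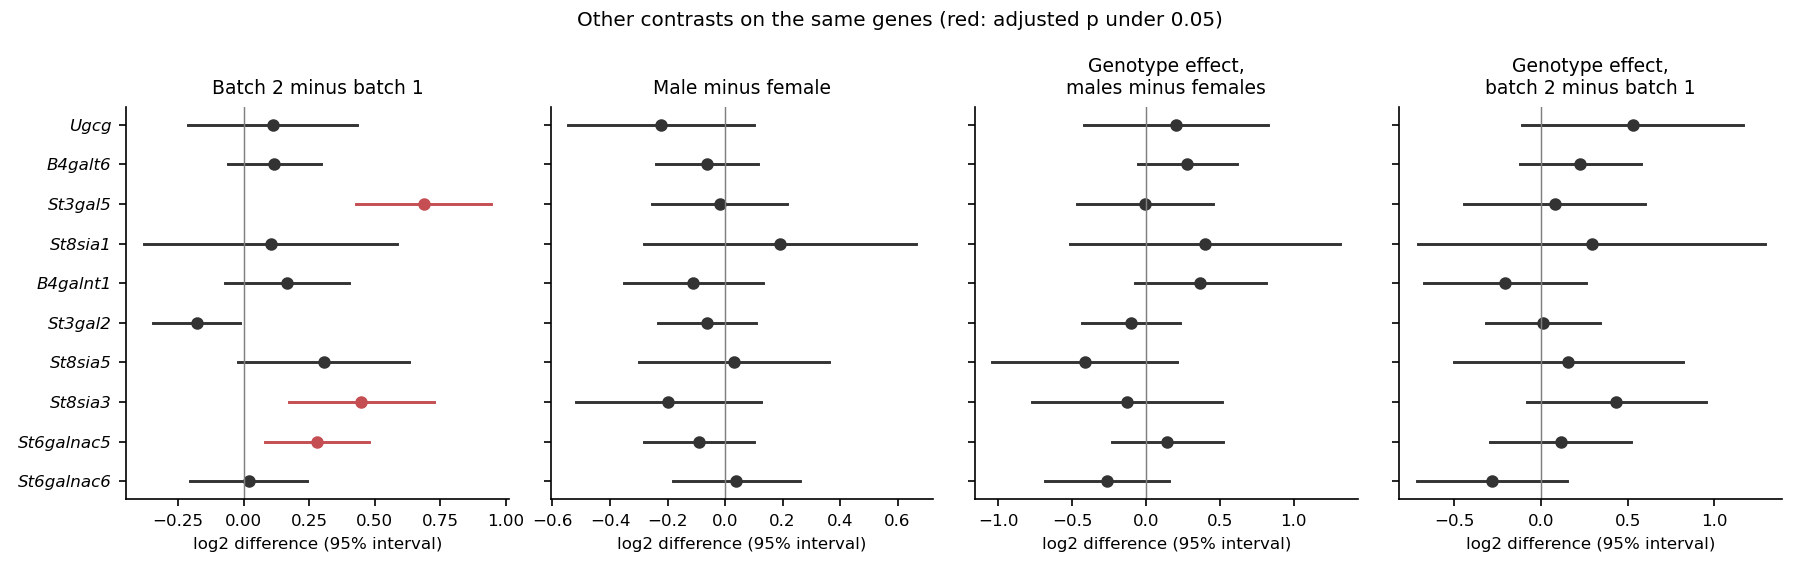
Log2 differences with 95% intervals (x axes, each panel with its own scale) of the 10 genes for batch 2 against batch 1, males against females, and the difference of the genotype effect between sexes and between batches, from edgeR fits over 21 mice. Red marks an adjusted p under 0.05, reached by St3gal5, St8sia3 and St6galnac5 in the batch panel.

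The genes whose level followed that of St6galnac5 most closely from mouse to mouse were found after genotype, sex and batch had been taken out of log2 CPM, over 6229 genes with a mean of 20 CPM or more. Erc1, a scaffold of the presynaptic active zone, had the highest Pearson r, 0.89 over the 21 mice (Spearman rho 0.83), and its genotype log2 fold change was -0.09. Clasp2, a microtubule plus-end protein, followed with 0.85. Lrp8, a reelin receptor, had 0.84, Fasn, the fatty acid synthase, 0.81, and Cmip 0.79. Without the 2 mice farthest from the median log2 CPM of St6galnac5, eIF2B HOM replicates 1 and 2, the 5 values were 0.83, 0.77, 0.80, 0.81 and 0.77. These 2 mice were picked before genotype, sex and batch were taken out, so this does not check for outlying residuals. Spearman rho was 0.77 for Clasp2, 0.70 for Lrp8, 0.66 for Fasn and 0.69 for Cmip. The choice of these 5 genes was not stable: 0 of them were among the first 5 in wild-type mice alone, and 2 by Spearman rho. In the 12 wild-type mice alone, which are part of the 21, r was 0.81 for Erc1, 0.82 for Clasp2 and 0.83 for Lrp8. It was 0.86 for Fasn and 0.81 for Cmip. These correlations are a description: all points of 2 genes come from the same libraries and share their depth.

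Among the other pathway genes above that level, St3gal5 (r = 0.47, rank 484) and B4galnt1 (r = 0.46, rank 530) had the highest r with St6galnac5, but this order was not stable. Without the same 2 eIF2B HOM mice St3gal2 led at 0.50, before St3gal5 at 0.29 and B4galnt1 at 0.27. In the 12 wild-type mice alone the values were 0.58, 0.14 and 0.38. B4galt6 (0.26), St3gal2 (0.16) and St8sia3 (0.08) followed, and St6galnac6 was at -0.00. Ugcg, St8sia5 and St8sia1 were below 20 CPM and were not ranked. None of the pathway genes was among the 5 genes most like St6galnac5.

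Genes that overlap the 10 on the genome were examined, since the strand setting of the count is not given in the sources used here. Pigk, on the opposite strand, shares 108 exonic bases with St6galnac5, 23063 bases from the 3′ end that these tags read, and was at 26.9 ± 6.77 CPM in eIF2B HOM mice (n = 9) and 25.0 ± 3.78 CPM in wild-type mice (n = 12). Its log2 fold change was 0.10 (SE 0.12, adjusted p = 0.765 by edgeR). Slc26a10, on the opposite strand, overlaps the 3′ end of B4galnt1 by 715 bases, where these tags fall, and held 8 counts over all libraries. That low count does not show whether tags in the shared bases were counted for B4galnt1. Exons of St8sia3os overlap St8sia3 by 919 bases, those of Gm7457 overlap St8sia1 by 149 bases and those of Gm7276 overlap St8sia5 by 387 bases, all on the opposite strand. The Gm7276 overlap lies 72546 bases from the 3′ end of St8sia5, away from where these tags fall. Those of St8sia3os and Gm7457 come within 2431 and 2266 bases of the 3′ ends of St8sia3 and St8sia1. Levels of these overlapping genes were not analysed here, so the values of St8sia3 and St8sia1 are uncertain to that extent. The value of B4galnt1 is uncertain too, through the bases shared with Slc26a10.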

How the data were processed

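RNA of 21 brains was sequenced with a 3′ mRNA kit with molecular identifiers. The authors trimmed the reads, used STAR for alignment (GRCm38) and featureCounts (Subread 1.6.2) for gene totals, and deposited raw counts and CPM. The deposited counts of 100 or more are rounded to 2 significant digits. The deposited CPM values, scaled by the authors to their library sizes, were used only to infer those sizes. No column of values was left unused.

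R 4.3.3 with edgeR 4.0.16 was used for the tests on counts. Low genes were dropped with filterByExpr on genotype, libraries were scaled by TMM, and the quasi-likelihood model (robust) had genotype, sex and age as terms. Genes were called at an adjusted p (Benjamini-Hochberg, 9192 genes) under 0.05. The study's own test, limma voomWithQualityWeights (limma 3.58.1), and DESeq2 1.42.0 were alternatives. The SE is the log2 fold change divided by the root of F. Batch fits held genotype, sex and batch, and interactions were fitted in separate models. Log2 CPM used a prior count of 2. Groups came from the genotype label, sex, age and batch from theirs. P-values measure the spread between these mice.

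The 10 genes and the lists were chosen with earlier results of these data known. Named were the 10 genes, of each list the called genes and the most abundant gene, and the 5 genes most like St6galnac5 by Pearson r of residuals. The uncalled list genes with the lowest and the highest log2 fold change were also named. Gene positions are those of the deposited table, and exons those of a Gencode annotation of the same build. The bounds of St8sia3 and St8sia5 differ between these sources. A few list names are not analysed here. A cell type marker was taken out of its list and is not reported here. Other alternatives were normalization factors, filters, covariates, each batch and sex alone, and leaving out each mouse. No sequences were printed.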

Additional observations from a re-analysis of the deposited data

Results flagged for a closer look

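In the eIF2B HOM mice, 3 of the 10 genes had a mouse that stood apart from the others, by a gap to its neighbour over the group's range above 0.493, the 95% critical value for 9 mice. Chance gives such a gap in about 1 in 20 groups drawn from a single normal distribution. These mice come from both batches and both sexes, and the rule was not run over all tested genes. Nothing is therefore read from the count of 3. The ratio was 0.712 for St6galnac6, where a male of 104 days in batch 2 had 48.7 CPM and the next lowest mouse 69.3 CPM. It was 0.568 for St3gal2, where a female of 114 days in batch 1 had 129 CPM and the next highest mouse 107 CPM. It was 0.616 for St8sia1, where a male of 101 days in batch 2 had 14.7 CPM, from 17 counts, and the next highest mouse 9.01 CPM.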

How the results depend on the processing

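The log2 fold change of St6galnac5 lay between -0.82 (batch 1 alone) and -0.59 (males alone) over 16 alternatives, and between -0.73 and -0.65 over the 21 fits that left out 1 mouse. None of the other 9 genes was called in any of these fits. The strict filter of 10 counts in every library removed St8sia1, St8sia5 and Ugcg. St8sia1 came nearest to a call without wild-type replicate 12 (-0.58, adjusted p = 0.105 by edgeR).

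Signs changed for 7 genes. St3gal5 was at -0.00455 with DESeq2, -0.00316 with genotype alone, -0.17 with batch in place of age, -0.0322 with age and batch, -0.0052 with the olfactory bulb covariate, -0.22 in batch 1 and -0.11 in batch 2. St8sia3 was at -0.0397 with batch in place of age, -0.11 with age and batch and -0.27 in batch 1. B4galt6 was at -0.086 in batch 1 and -0.0634 in females. St6galnac6 was at -0.0682 in batch 2, -0.11 in males and -0.021 without the libraries under 1000000 listed counts. B4galnt1 was at -0.0151 in batch 2 and -0.0439 in females. Psap was at 0.0887 in batch 2 and St3gal6 at 0.0372 in males. Leaving out 1 mouse gave -0.00999 to 0.107 for St6galnac6 and -0.0672 to 0.0664 for St3gal5. The cause was not tested.

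The number of genes called by genotype, 397, was 197 with genotype alone, 238 with batch in place of age, 246 with age and batch, 87 and 117 in batches 1 and 2, 154 in females, 101 in males, and 269 to 550 when 1 mouse was left out (269 without eIF2B HOM replicate 8, 550 without wild-type replicate 4). The number called lower, 156, was in the same order 46, 55, 80, 12, 22, 31, 27 and 86 to 270, and it was 253 with limma and 103 without the libraries under 1000000 listed counts. Fits within a batch or sex hold fewer mice.

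For the batch contrast, 1 of the 10 genes was called in wild-type mice alone, and 1 to 3 when 1 mouse was left out. The call of St6galnac5 (0.28) was lost in eIF2B HOM mice alone (0.38, adjusted p = 0.202), in wild-type mice alone (0.24, adjusted p = 0.226), and without eIF2B HOM replicates 1, 2, 7 or 8 or wild-type replicates 2, 8, 9 or 11 (0.22 to 0.28, adjusted p from 0.0509 to 0.133). Of the 5 genes most like St6galnac5, 0 were among the first 5 in wild-type mice alone and 2 by Spearman's rho. Without a filter, 3 genes were called for the genotype by batch term, none of them among the 10.

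The fits with the striatal covariate, without the wild-type female of 114 days, without the libraries under 1000000 listed counts and the batch fits without each mouse were chosen after seeing the data. No paired analysis was possible because the labels give animal numbers with no shared litter or replicate number. Depth limits St8sia1 most, at 4 to 23 counts per library. No gene of the 10 failed the filter on low counts.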
